A study of Mus musculus with 2 samples.

Results

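The NF-kB subunits and their feedback inhibitors are described here in microglia, the brain's own immune cells, of mice that lacked PARK7/DJ-1 (KO) and of wildtype mice (WT), taken 24 h after systemic inflammation was set off by lipopolysaccharide (LPS), a part of the bacterial outer membrane. The set was chosen by name and holds 10 of the 19537 genes in the deposited tables, namely the inhibitors Nfkbia, Nfkbib, Nfkbie, Nfkbiz and Tnfaip3 and the subunit genes Nfkb1, Nfkb2, Rela, Relb and Rel. All 10 were listed in both libraries and all 10 had at least 20 transcript molecules over both, the minimum used for counts over all genes. The KO mice carried a gene trap in Park7, the gene of DJ-1 (allele Gt(XE726)Byg, crossed onto C57BL/6NCrl), and the WT mice were littermates. All were 3 to 4 months old and received 4 µg LPS per g body weight into the peritoneum. Brain cells of the surface type CD11b+CD45int were sorted and captured by Drop-seq, in which a barcoded bead shares a droplet with a cell and a unique molecular identifier (UMI) marks each captured transcript molecule near its 3' end. There was 1 library per genotype, labelled KO.LPS and WT.LPS and called KO and WT below, and each pooled 2 mice, 1 female and 1 male. Genotype therefore cannot be told apart from library, no untreated library was used here, no test between genotypes was possible, and every interval below is a 95% interval of counting error only.

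NF-kB proteins are dimers of 5 related subunits that the inhibitors of the IkB family hold in the cytoplasm of a resting cell. A signal such as LPS activates a kinase complex that marks the inhibitors for degradation, so that the dimers enter the nucleus. Among the genes they switch on are those of their own inhibitors, above all Nfkbia and Tnfaip3, which close a negative feedback loop. In microglia this pathway is a main route from bacterial products to cytokine and chemokine genes.

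Barcodes with at least 500 UMIs and at least 100 genes were taken as cells, which gave 320 cells in KO (median 963.5 UMIs, 381305 in all) and 1427 in WT (median 1065 UMIs, 1989011 in all), with 0 barcodes in common. Levels are UMIs of a gene per 1e6 UMIs of the cells of a library (CPM), so that 1 UMI stands for 2.62 CPM in KO and 0.503 CPM in WT. Park7 had 1 UMI in KO and 323 in WT, a KO/WT ratio of 0.0161 (0.000408 to 0.0906). All 12 microglia markers were present in both libraries, with a summed KO/WT ratio of 1.59 (1.56 to 1.62). Of these 12, 11 had an interval wholly above 1 and 6 were at least 2-fold higher in KO, beside 19.6% and 12.9% of the 9085 genes with at least 20 UMIs. The libraries also stood apart in other ways. Mitochondrial transcripts made up 3.93% of UMIs in KO and 5.16% in WT, ribosomal protein transcripts 1.48% and 2.81%, and the summed level of 10 reference (housekeeping) transcripts had a KO/WT ratio of 0.594 (0.569 to 0.620). Choroid plexus markers, 4 of 4 present in KO and 3 of 4 in WT, summed to 2119 CPM and 14.1 CPM, while all 7 neutrophil markers were at 0 in KO and summed to 66.9 CPM in WT, with Camp, Ltf and Ngp at 0. The part of these differences in the results below was not tested unless a value is given.

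Nfkbia encodes IkB-alpha, the inhibitor that is resynthesised fastest after NF-kB enters the nucleus. It had 84 UMIs in KO, a level of 220.3 CPM (176 to 273), and 2315 UMIs in WT, a level of 1164 CPM (1117 to 1212). It was 5.28-fold (4.25 to 6.65) higher in WT and the intervals of the libraries lay far apart. Tnfaip3 encodes A20, an enzyme that edits ubiquitin chains on signalling proteins and so shuts down the kinases upstream of NF-kB. Its 6 UMIs in KO gave 15.7 CPM (5.77 to 34.2) and its 164 UMIs in WT gave 82.5 CPM (70.3 to 96.1), a KO/WT ratio of 0.191 (0.0690 to 0.424). The Tnfaip3 ratio was close to that of Nfkbia, 0.189 (0.150 to 0.235), but its interval was wider because of the few UMIs in KO. Nfkbiz encodes IkB-zeta, an inducible nuclear member of the IkB family that also serves as a co-activator of some NF-kB targets. Nfkbiz had 18 UMIs or 47.2 CPM (28.0 to 74.6) in KO and 258 UMIs or 129.7 CPM (114 to 147) in WT, a ratio of 0.364 (0.212 to 0.587).

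For the other classical inhibitors the interval of the ratio included 1. Nfkbib, the gene of IkB-beta, had 8 UMIs or 21.0 CPM (9.06 to 41.3) in KO and 78 UMIs or 39.2 CPM (31.0 to 48.9) in WT. Its ratio was 0.535 (0.223 to 1.11), with a point value on the same side as Nfkbia. Nfkbie, the gene of IkB-epsilon, had 14 UMIs or 36.7 CPM (20.1 to 61.6) in KO and 49 UMIs or 24.6 CPM (18.2 to 32.6) in WT. It was the only inhibitor with a ratio above 1, at 1.49 (0.760 to 2.74), and its libraries overlapped within counting error.

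Among the subunits, Rel and Nfkb1 were the most abundant and their levels overlapped between the libraries. Rel encodes c-Rel, a subunit found mainly in blood and immune cells. It had 59 UMIs or 155 CPM (118 to 199.6) in KO and 258 UMIs or 129.7 CPM (114 to 147) in WT, a ratio of 1.19 (0.883 to 1.59). Nfkb1 encodes p105, the precursor of the p50 subunit, which itself can retain dimers in the cytoplasm. Its 44 UMIs in KO gave 115 CPM (83.8 to 155) and its 215 UMIs in WT gave 108 CPM (94.1 to 124), a ratio of 1.07 (0.754 to 1.48). Rela encodes p65, the main activating subunit of the canonical pathway, which is regulated mostly at the protein level. It had 9 UMIs or 23.6 CPM (10.8 to 44.8) in KO and 48 UMIs or 24.1 CPM (17.8 to 32.0) in WT, a ratio of 0.978 (0.422 to 2.02). With so few UMIs, a Rela difference of 2-fold in either direction lies within the interval or at its edge.

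Nfkb2 and Relb, whose products pair with each other in the non-canonical pathway, were lower in KO. Nfkb2 encodes p100, which holds RelB in the cytoplasm until it is processed to p52. It had 2 UMIs or 5.25 CPM (0.635 to 18.9) in KO and 60 UMIs or 30.2 CPM (23.0 to 38.8) in WT, a ratio of 0.174 (0.0206 to 0.656). Relb had 6 UMIs or 15.7 CPM (5.77 to 34.2) in KO and 78 UMIs or 39.2 CPM (31.0 to 48.9) in WT, a ratio of 0.401 (0.143 to 0.913). Both genes had so few molecules in KO that the size of the difference is poorly known, and the upper end of the Relb interval was close to 1. Summed, they had a ratio of 0.302 (0.128 to 0.613), against 1.14 (0.909 to 1.41) for the sum of Nfkb1 and Rel.

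Within WT, Nfkbia stood far above the rest, followed by Rel and Nfkbiz with 258 UMIs each, Nfkb1, Tnfaip3, Nfkbib and Relb with 78 UMIs each, Nfkb2, Nfkbie and Rela. The intervals of Rel, Nfkbiz and Nfkb1 overlapped, those of Nfkb1 and Tnfaip3 barely did, and those of Nfkbib, Relb, Nfkb2, Nfkbie and Rela overlapped in neighbouring pairs. Within KO the order was Nfkbia, Rel, Nfkb1, Nfkbiz, Nfkbie, Rela, Nfkbib, Tnfaip3 and Relb with 6 UMIs each, and Nfkb2, and the intervals of Nfkbia and Rel overlapped. UMIs near the 3' end do not scale with transcript length, and these orders are a description.

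**Figure D1:**
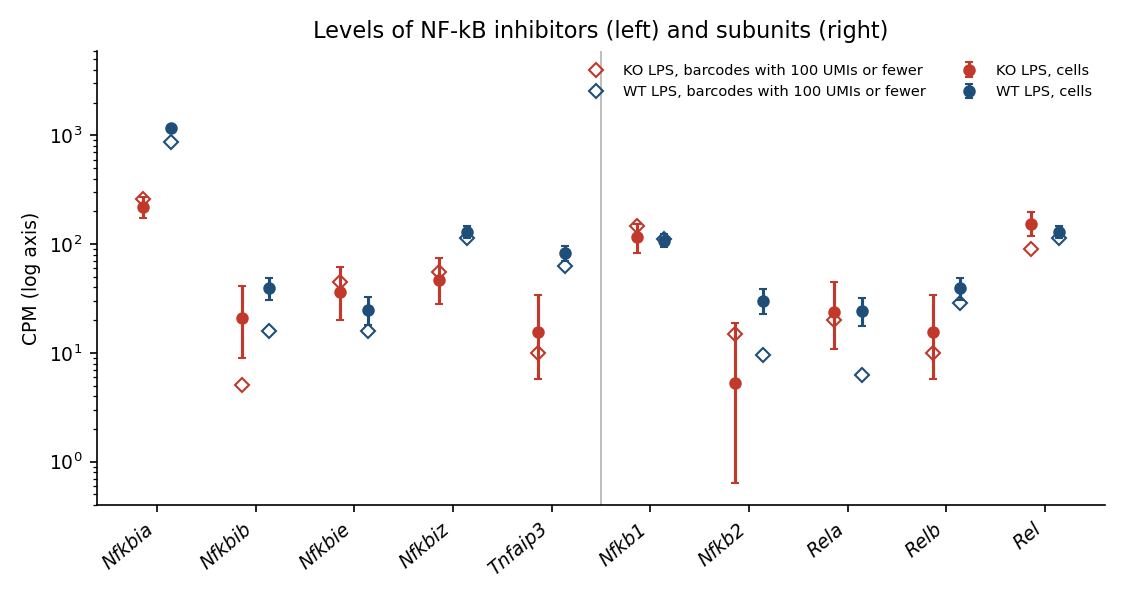
Level of each of the 10 genes in CPM on a log axis, in KO (320 cells) and WT (1427 cells), with filled points for the 2 libraries, bars for exact Poisson 95% intervals and open diamonds for barcodes with at most 100 UMIs. Nfkbia stood at 220.3 CPM in KO and 1164 CPM in WT, while the points of Rel, Nfkb1 and Rela nearly coincided.

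In all, 5 of the 10 genes (Nfkbia, Tnfaip3, Nfkbiz, Nfkb2 and Relb) were at least 2-fold lower in KO, beside 17.1% of the 9085 genes that reached 20 UMIs. None of the 10 was at least 2-fold higher, beside 12.9% of those genes. The interval of the ratio lay wholly below 1 for the same 5 genes, beside 18.7% of all genes, and wholly above 1 for 0, beside 19.6%. A ratio below 1 was found for 7 of the 10, beside 50.7%. The median log2 ratio was -1.42 over the 5 inhibitors and 0.03 over the 5 subunits, and it was also 0.03 over all 9085 genes. When the libraries were scaled to the 10 reference transcripts instead of to all UMIs, a choice made after the data were seen, every log2 ratio shifted by 0.75. Then 3 of the 10 genes were at least 2-fold lower, beside 7.12% of the 9085 genes, and 2 were at least 2-fold higher, beside 39.1%, namely Nfkbie with a log2 ratio of 1.36 and Rel with 1.01. Nfkbia then had a log2 ratio of -1.64 and the summed subunits one of 0.68, so that the direction for the summed subunits turned from slightly lower to higher in KO.

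**Figure D2:**
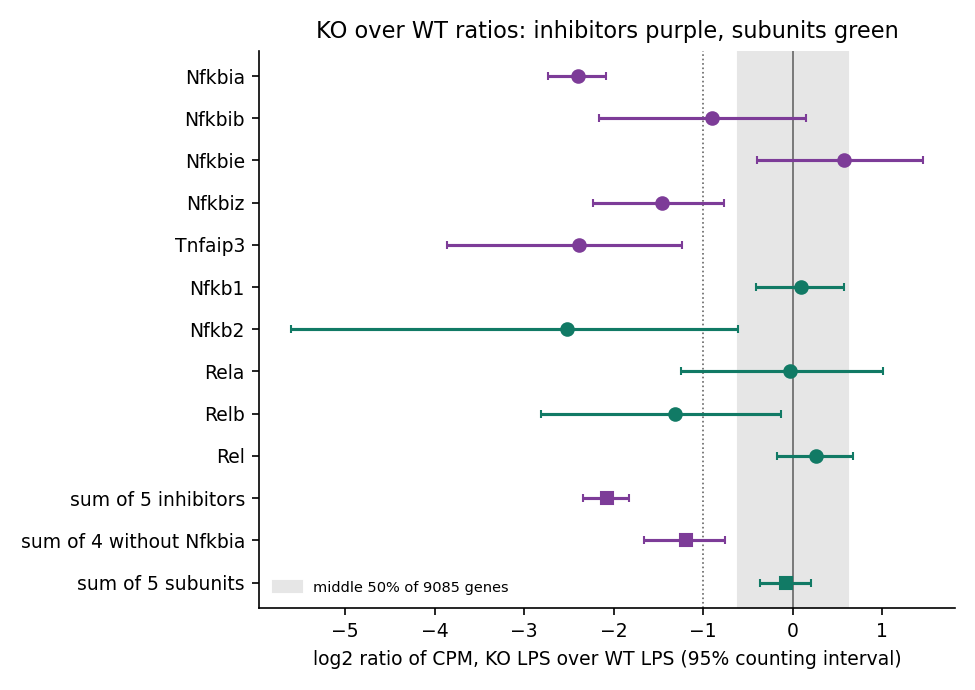
Log2 of the KO over WT ratio for each gene (circles) and for sums of genes (squares), with exact 95% intervals, a line at 0, a dotted line at 2-fold lower and the middle 50% of all genes in grey. The intervals of Nfkbia, Tnfaip3, Nfkbiz, Nfkb2 and Relb lay below 0, and those of Nfkbib, Nfkbie, Nfkb1, Rela and Rel included it.

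The start sites of several of these genes carry kappa-B motifs, the short sequences that NF-kB dimers bind, and the sequence upstream of the start is shown for genes that did and did not differ between the libraries. Windows of 250 bases before and 50 bases after the start came from RefSeq (GRCm38.p6) and were matched by symbol for 7 of the 10 genes. Nfkbiz, Nfkb1 and Relb were not in the table. The kappa-B consensus of 10 letters, searched on both strands, was found in a window of Nfkbia, Nfkbie, Tnfaip3, Nfkb2 and Rel and in none of Nfkbib and Rela, that is in 5 of 7 genes, and in 1388 of 27025 genes of the table (5.14%). The 250 bases upstream of the first listed start of Nfkbia lie on the minus strand at chr12:55492648-55492897, those of Tnfaip3 on the minus strand at chr10:19015411-19015660, those of Nfkb2 on the plus strand at chr19:46304487-46304736, those of Rel on the minus strand at chr11:23770970-23771219 and those of Rela on the plus strand at chr19:5637291-5637540. Capitals mark the stretches that match, and overlapping matches are joined into 1 stretch.
Nfkbia: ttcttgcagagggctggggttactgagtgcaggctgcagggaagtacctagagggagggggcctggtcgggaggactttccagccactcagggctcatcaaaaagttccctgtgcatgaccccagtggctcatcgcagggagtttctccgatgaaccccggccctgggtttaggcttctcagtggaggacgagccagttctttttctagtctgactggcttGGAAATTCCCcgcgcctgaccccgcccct
Tnfaip3: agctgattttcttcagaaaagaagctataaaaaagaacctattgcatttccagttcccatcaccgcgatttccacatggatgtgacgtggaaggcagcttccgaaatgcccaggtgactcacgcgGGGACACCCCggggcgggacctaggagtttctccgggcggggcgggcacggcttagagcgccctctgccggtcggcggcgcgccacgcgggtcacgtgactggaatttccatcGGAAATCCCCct
Nfkb2: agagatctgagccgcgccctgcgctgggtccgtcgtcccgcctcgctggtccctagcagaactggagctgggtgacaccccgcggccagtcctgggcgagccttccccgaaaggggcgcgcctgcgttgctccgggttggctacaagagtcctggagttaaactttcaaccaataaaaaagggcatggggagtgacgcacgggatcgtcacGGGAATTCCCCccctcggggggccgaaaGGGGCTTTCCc
Rel: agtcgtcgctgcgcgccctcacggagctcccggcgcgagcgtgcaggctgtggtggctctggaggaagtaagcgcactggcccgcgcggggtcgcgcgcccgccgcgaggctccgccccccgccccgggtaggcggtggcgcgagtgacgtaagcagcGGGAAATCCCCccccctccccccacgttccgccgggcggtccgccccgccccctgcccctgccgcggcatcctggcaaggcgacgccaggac
Rela: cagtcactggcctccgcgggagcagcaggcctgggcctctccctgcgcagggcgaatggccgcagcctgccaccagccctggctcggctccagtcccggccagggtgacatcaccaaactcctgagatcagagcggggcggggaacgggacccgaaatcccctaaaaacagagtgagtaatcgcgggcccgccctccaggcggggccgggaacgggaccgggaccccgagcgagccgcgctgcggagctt
The Nfkbia match began 29 bases before the start. Tnfaip3 held 2 stretches, at 125 and 12 bases before it, and Nfkb2 also 2, at 39 and 11 bases before it. The Rel stretch began 92 bases before the start, and Rela held none. A match was thus present both in genes that were lower in KO, such as Nfkbia, Tnfaip3 and Nfkb2, and in Rel, whose level overlapped between the libraries. A match is a description of the letters and does not show a bound site.

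Where the genes lie bears on their counts, since it was not stated whether counting used the strand. In GRCm39 (GENCODE vM39) Nfkbia lies at chr12:55535332-55539432 on the minus strand and shares bases with a long noncoding RNA on the other strand. Tnfaip3 (chr10:18874201-18891405, minus), Nfkb1 (chr3:135290264-135397742, minus) and Rela (chr19:5687493-5698161, plus) each overlap a long noncoding RNA on the other strand too, and Nfkb1 also an unverified transcript on its own strand, which counting by strand would not separate. Nfkbib (chr7:28457486-28466937, minus) overlaps the protein-coding genes Sirt2 and Ccer2 and a long noncoding RNA on the other strand, and Nfkb2 (chr19:46292759-46303812, plus) overlaps the protein-coding gene Psd and a long noncoding RNA there. Counts of these 6 genes are uncertain to that extent. Nfkbie (chr17:45866585-45874661, plus), Nfkbiz (chr16:55631738-55659262, minus), Relb (chr7:19339017-19363425, minus) and Rel (chr11:23686847-23721264, minus) overlap no other annotated gene.

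The balance of inhibitors and subunits was then compared within each library, where the scaling between libraries drops out. The 5 inhibitors summed to 130 UMIs or 341 CPM (285 to 405) in KO and to 2864 UMIs or 1440 CPM (1388 to 1494) in WT, a ratio of 0.237 (0.197 to 0.282). The 5 subunits summed to 120 UMIs or 315 CPM (261 to 376) in KO and to 659 UMIs or 331 CPM (307 to 358) in WT, a ratio of 0.95 (0.775 to 1.16). Inhibitors thus made up 52% (45.6 to 58.3) of the UMIs of the 10 genes in KO and 81.3% (80.0 to 82.6) in WT. The difference was -29.3 percentage points (-35.8 to -22.8). There were 1.08 inhibitor UMIs per subunit UMI in KO and 4.35 in WT.

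Nfkbia carried much of this balance but not all of it. It made up 33.6% of the UMIs of the 10 genes in KO and 65.7% in WT. Without Nfkbia, the other 4 inhibitors summed to 121 CPM (88.3 to 161) in KO and 276 CPM (253 to 300.1) in WT, a ratio of 0.437 (0.316 to 0.591). Their share of the remaining UMIs was 27.7% (21.1 to 35.2) in KO and 45.4% (42.6 to 48.3) in WT. Rel took 23.6% of the UMIs of the 10 genes in KO and 7.32% in WT, and Nfkb1 took 17.6% and 6.10%. Within the subunits, Nfkb2 and Relb together gave 6.67% (2.92 to 12.7) of the UMIs in KO and 20.9% (17.9 to 24.3) in WT.

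**Figure D3:**
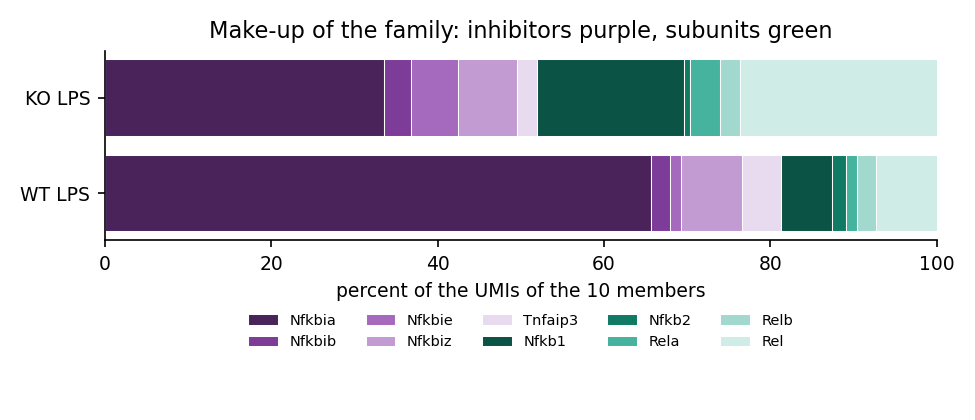
Share of each gene in the UMIs of the 10 genes, in percent, stacked for KO (250 UMIs) and WT (3523 UMIs). Nfkbia filled 33.6% of the KO bar and 65.7% of the WT bar, and Rel and Nfkb1 filled larger parts of the KO bar.

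Droplets also hold free RNA, and its level was read from barcodes with at most 100 UMIs (9069 in KO with 198723 UMIs, 4267 in WT with 315748 UMIs). Free Nfkbia was at 262 CPM (195 to 343) in KO and 868 CPM (768 to 977) in WT. In WT the cells held 1.34-fold (1.18 to 1.53) the free level, and in KO 0.842-fold (0.589 to 1.21), so that the KO level in cells was not above that of free RNA. Of the other 9 genes, Nfkbib at 2.48-fold (1.02 to 7.84) and Nfkb2 at 3.17-fold (1.04 to 15.8) had an interval above the free level in WT, on 5 and 3 UMIs of free RNA, and none had one in KO. The inhibitor share of the 10 genes in free RNA was 57.3% (48.3 to 65.9) in KO and 80% (75.9 to 83.7) in WT, close to the shares in cells. The lower Nfkbia level and inhibitor share of KO were therefore present in cells and in free RNA, and how much of the cell level is free RNA was not tested. With an assumed free RNA share of 20% subtracted from the cells, the log2 ratio was -2.55 for Nfkbia (-2.39 as reported). It was -2.20 for the summed inhibitors and -0.10 for the summed subunits, and the inhibitor share differed by -30.8 points.

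At an equal depth of 500 UMIs per cell, 31 of 320 KO cells (9.69%, 6.68 to 13.5) and 541 of 1427 WT cells (37.9%, 35.4 to 40.5) held an Nfkbia UMI. The difference was -28.2 points (-32.2 to -23.7). Droplets of 500 UMIs filled with free RNA alone would reach 12.3% and 35.2%, so the KO share was at background and the WT share lay just above it, with the counting error of the free level itself not included. Before thinning the shares were 17.8% and 61.5%. More than 1 Nfkbia UMI was found in 0 of 320 KO cells in the thinning to 500 UMIs, where free RNA would give 0.783%. A limit of 3 counts, used here for a count of 0 and not a Clopper-Pearson bound, allows up to 0.938% (3 cells of 320). In WT 175 cells (12.3%) held 2 or more, with up to 8 in a cell, where free RNA would give 7.08%. At 1000 UMIs 8 of 148 KO cells (5.41%) and 227 of 770 WT cells (29.5%) held 2 or more, where free RNA would give 2.88% and 21.6%. Before thinning 13 KO and 506 WT cells did, with up to 9 and 27 UMIs in a cell. No cell type that should lack these genes was sorted, so free RNA is the sole background at hand.

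A UMI of any subunit was found in 46 KO cells (14.4%, 10.7 to 18.7) and in 197 WT cells (13.8%, 12.1 to 15.7), where free RNA would give 13.1% and 12.6%. A UMI of any inhibitor was found in 14.7% (11.0 to 19.0) and 43.1% (40.5 to 45.7) of cells, where free RNA would give 17.2% and 41.6%. The subunit shares were thus alike in both libraries and the inhibitor shares were not, while in either case cells and free RNA differed little.

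**Figure D4:**
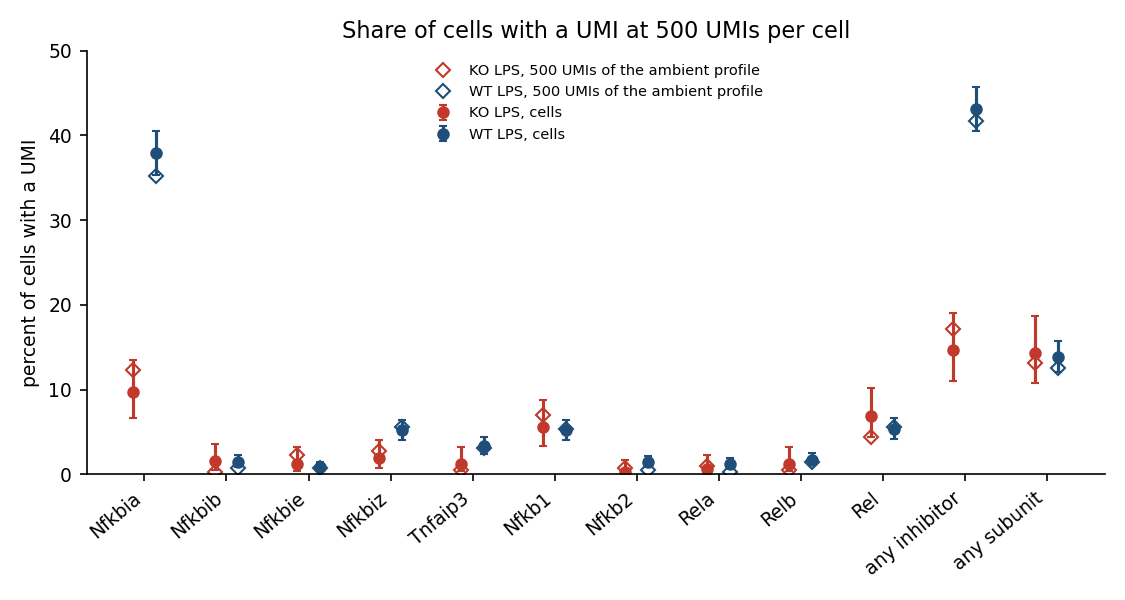
Percent of cells with at least 1 UMI of each gene or group after thinning to 500 UMIs per cell, with exact 95% intervals, and the percent that free RNA alone would give. Nfkbia was found in 9.69% of KO cells and 37.9% of WT cells, beside 12.3% and 35.2% for free RNA.

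Cells seldom held UMIs of several of the 10 genes. At 500 UMIs, 72.8% of KO cells and 49.3% of WT cells held none, 24.1% and 39.8% held 1 of the genes, 3.13% and 9.46% held 2, and 0% and 1.47% held 3 or more. With Nfkbia left out, 80.3% and 78.0% held none, so most of the difference in this number came with Nfkbia. In WT, 131 cells held Nfkbia and another of the genes, against 119 from the product of the separate shares, a quotient of 1.10 (0.920 to 1.31). The quotient was 0.991 for Nfkbia with any subunit and 1.28 (0.9996 to 1.62) for Nfkbia with any other inhibitor. Nfkbia was found in 48.6% (40.2 to 57.1) of cells with another inhibitor and 36.7% (34.1 to 39.4) of cells without one. For any subunit these shares were 37.6% (30.8 to 44.7) and 38.0% (35.2 to 40.7), and for any other of the genes 41.7% (36.2 to 47.4) and 36.8% (34.0 to 39.7). At 1000 UMIs, which 770 WT cells reached, Nfkbia with any other of the genes gave 1.14 (0.993 to 1.31). With any subunit it gave 1.15 (0.958 to 1.37) and with any other inhibitor 1.16 (0.960 to 1.38), so that subunits and inhibitors did not stand apart at this depth. Intervals of quotients hold the product fixed and cover the joint count only. At 1000 UMIs Nfkbia was found in 68.0% (62.4 to 73.1) of cells with another of the genes and 53.8% (49.1 to 58.4) of cells without. For any subunit the shares were 68.5% (61.2 to 75.2) and 56.7% (52.6 to 60.8), and for any other inhibitor 68.7% (61.4 to 75.4) and 56.7% (52.6 to 60.7). Within each pair of shares the intervals did not overlap. Of pairs with an expected count of at least 5, 5 of 8 had a quotient above 1 at 500 UMIs (0.891 to 1.51) and 13 of 13 at 1000 UMIs (1.03 to 1.53). In KO only 7 cells held Nfkbia and another of the genes, too few to describe.

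Within WT, cells were grouped by their UMIs of 25 NF-kB target genes, mostly cytokines, chemokines and acute-phase genes. Nfkbia was found in 32.2% of the 456 cells with 0 target UMIs, 36.8% of the 551 cells with 1 or 2, 47.3% of the 224 cells with 3 to 5, and 43.4% of the 196 cells with 6 or more. The other inhibitors together were found in 8.55%, 9.62%, 10.7% and 14.3% of these cells. The subunits were found in 13.4%, 12.7%, 19.2% and 11.7%. With Saa3 and Lcn2 left out of the target genes, the Nfkbia shares over the same ranges were 34.3%, 39.2%, 48.5% and 47.1%. Those of the other inhibitors were then 9.81%, 8.85%, 14.2% and 20.6%, and those of the subunits 13.03%, 12.3%, 20.9% and 26.5%. The highest range then held only 34 cells, and the subunit share in it moved from 11.7% to 26.5% (12.9 to 44.4), so no order of the subunits against the inhibitors can be read. In KO 259 of 320 cells had 0 target UMIs and 2 cells had more than 2. Nfkbia was found in 8.49% (5.40 to 12.6) of these 259 cells and in 15.3% (7.22 to 27.0) of the 59 KO cells with 1 or 2, and the intervals overlapped. The cells share a library and the free RNA in it, and these shares are a description.

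**Figure D5:**
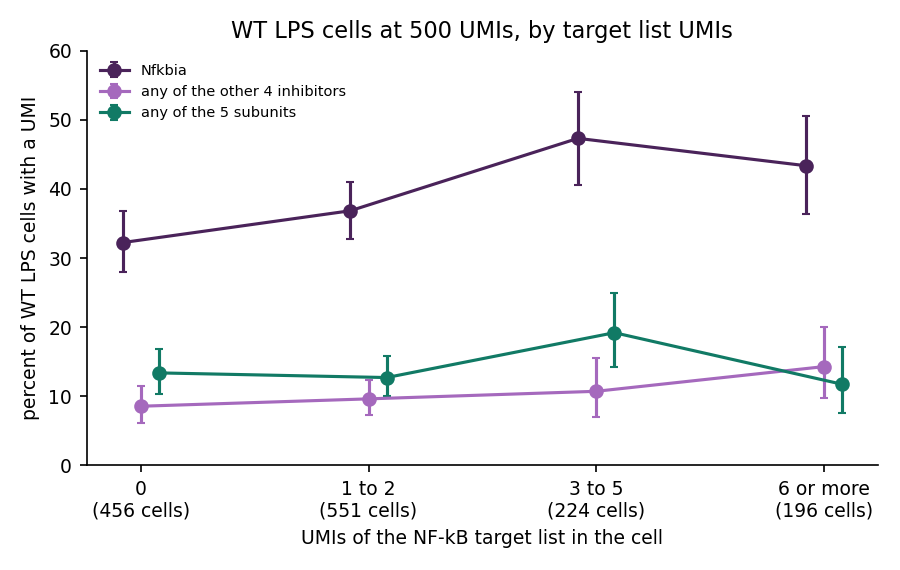
Percent of WT cells at 500 UMIs that held a UMI of Nfkbia, of any other inhibitor or of any subunit, by the number of target gene UMIs in the cell, with exact 95% intervals. Nfkbia went from 32.2% at 0 target UMIs to 47.3% at 3 to 5 and 43.4% at 6 or more.

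The list of 24 kinases, adaptors and ubiquitin ligases of the canonical and non-canonical pathways showed no common direction. At least 2-fold lower were 2 of 24 and at least 2-fold higher 4 of 24, with a median log2 ratio of 0.24, beside 17.1%, 12.9% and 0.03 over all genes. Map3k8, the kinase Tpl2 that is held by p105, had 11 UMIs in KO and 257 in WT, a ratio of 0.223 (0.110 to 0.406). Fbxw11, a subunit of the ligase that marks IkB for degradation, had 24 and 55 UMIs, a ratio of 2.28 (1.35 to 3.74). The other genes past 2-fold, named after their values were seen, were Traf3 at 0.234 (0.0470 to 0.713), Tab2 at 2.15 (1.77 to 2.60), Traf2 at 2.61 (1.14 to 5.61) and Btrc at 3.65 (1.71 to 7.60). Traf3 and Traf2 are adaptors, Tab2 links ubiquitin chains to the kinase TAK1, and Btrc is a subunit of the same ligase as Fbxw11. No set test was made, and these few members are given as they stand.

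Of 18 other brakes on the pathway, 14 had enough UMIs, of which 5 were at least 2-fold lower and 1 was at least 2-fold higher, with a median log2 ratio of -0.44, beside 17.1%, 12.9% and 0.03 over all genes. Irak3, an inactive kinase that dampens Toll-like receptor signalling, had 0 UMIs in KO and 133 in WT. Itch, a ubiquitin ligase that acts with A20, had 113 and 323 UMIs, a ratio of 1.82 (1.46 to 2.27). The others past 2-fold, named after their values were seen, were Bcl3 with 0 and 57 UMIs, Tank at a ratio of 0.360 (0.193 to 0.618), Tnip2 at 0.451 (0.281 to 0.691), Zc3h12a at 0.356 (0.127 to 0.806) and, on the higher side, Tollip at 3.18 (1.51 to 6.44). Bcl3 is an atypical nuclear IkB protein, Tnip2 a partner of A20, Zc3h12a a nuclease that degrades inflammatory transcripts, and Tollip an inhibitor of Toll-like receptor signalling.

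Of the 25 target genes in the tables, 21 had enough UMIs. All 21 had a ratio below 1, and 16 were at least 2-fold lower in KO, with a median log2 ratio of -2.68, beside 50.7%, 17.1% and 0.03 over all genes. This list holds genes that earlier results of these data had shown to be lower, so its count is not independent evidence of direction. Of the 4 target genes below 20 UMIs, Il6, a cytokine named after its values were seen, went the other way, with 9 UMIs in KO and 8 in WT, a ratio of 5.87 (2.01 to 17.5). Saa3, an acute-phase protein gene, had 0 UMIs in KO and 8367 in WT. Cd83, a surface protein of activated antigen-presenting cells, had 17 and 101 UMIs, a ratio of 0.878 (0.492 to 1.48). Of the 21, 17 had an interval wholly below 1, beside 18.7% of all genes, and Cd83 was not among them.

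Immediate early genes, which respond to stress and to cell isolation, differed in both directions. Of 13 with enough UMIs, 7 had a ratio below 1 (beside 50.7% of all genes), 3 were at least 2-fold lower (beside 17.1%), 0 were at least 2-fold higher (beside 12.9%), 5 had an interval wholly below 1 (beside 18.7%) and 3 wholly above (beside 19.6%). The median log2 ratio was -0.01 and the summed levels were 2200 CPM in KO and 2248 CPM in WT. Klf4, a transcription factor, had 3 UMIs in KO and 176 in WT. Jund, an AP-1 subunit, had 118 and 328 UMIs, a ratio of 1.88 (1.51 to 2.32). Of the 10 reference transcripts 8 had a ratio below 1. Among those with at least 50 UMIs, Rplp0 was lowest at 0.314 (0.249 to 0.392) and Sdha highest at 1.00 (0.649 to 1.498).

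The lower Nfkbia level in KO was found at every depth. In cells with at least 500, 750, 1000 and 1500 UMIs, each up to the next bound, it was 188, 177, 177 and 274 CPM in KO and 1046, 1192, 990.3 and 1250 CPM in WT. Without cells that held a marker of other blood or border cells, Nfkbia was at 241 CPM in 277 KO cells and 1162 CPM in 1182 WT cells. The 64 WT cells with a neutrophil marker had 1276 CPM, near the level of all cells. Without cells that held a marker of other brain cell types, among them choroid plexus, Nfkbia was at 143 CPM in 172 KO cells and 1124 CPM in 1078 WT cells, a larger difference. The cells left held 167723 of 381305 UMIs in KO and 1307423 of 1989011 in WT, and the effect of this uneven loss was not tested.

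The libraries also differed in how much each mouse contributed. Xist, expressed by female cells, was at 2106 CPM in KO and 803 CPM in WT, and Y-linked genes summed to 78.7 and 197 CPM. In cells with Xist UMIs and no Y-linked UMI, 200 in KO and 565 in WT, the Nfkbia ratio was 0.184 (0.137 to 0.242), that of the summed inhibitors 0.225 (0.178 to 0.281) and that of the summed subunits 1.00 (0.773 to 1.28). These values were close to those in all cells. Detection of Xist does not assign a cell to a mouse, since 9 KO and 80 WT cells held UMIs of Xist and of Y-linked genes, and 99 and 587 cells held neither. In cells with neither, the Nfkbia ratio was 0.226 (0.147 to 0.333). Cells with UMIs of Y-linked genes but none of Xist numbered 12 in KO and 195 in WT. They held 0 and 356 Nfkbia UMIs, 1 and 431 inhibitor UMIs, and 4 and 105 subunit UMIs, and 12 cells are too few for a comparison of single genes.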

How the data were processed

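UMIs were counted per gene and cell barcode in 2 Drop-seq libraries, 1 per genotype. The authors deposited raw counts, 1 table per library with 9999 barcodes, not filtered to cells. The submitters' processing notes name bcl2fastq 2.0, STAR, mm9 and mm10 without roles. The counting program, the annotation and the use of strand are not given in the sources used here. Missing values (5616 genes in KO, 3036 in WT) were read as 0. Libraries were assigned from the labels, which give the genotype.

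UMIs were summed over cells and scaled to 1e6 (CPM). Intervals were exact Poisson for levels, exact conditional binomial for ratios and Clopper-Pearson for shares, and they cover counting error only. For co-detection quotients they were exact Poisson for the joint count, with the product held fixed. Log2 ratios used a prior count of 0.5. For shares, cells were thinned without replacement to 500 UMIs, with 1000 as an alternative, and shallower cells were left out. Doublets were left in, and leaving out the deepest 5% of cells was an alternative. Expected shares from free RNA used barcodes with at most 100 UMIs. Since there was 1 library per genotype, no test was made.

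Named genes were the 10 members, Park7, the highest and lowest log2 ratio with at least 50 UMIs in each of 5 lists, and the 5 genes most correlated with Nfkbia. Other listed genes past 2-fold were named after their values were seen, also below 50 UMIs. Members, lists and rules were chosen with earlier results of these data known. Older symbols were matched through a RefSeq table, and Cxcl1 was not matched. The calculations used Python 3.11.15, numpy 2.4.6, scipy 1.17.1 and pandas 2.3.3 and were tested on simulated data. The result of 1 marker list is not reported here.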

Additional observations from a re-analysis of the deposited data

How the results depend on the processing

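Of 67 alternative values for the summary results (Nfkbia, the summed inhibitors and subunits, the inhibitor share, the count of genes at least 2-fold lower, the Nfkbia cell share and co-detection), 52 stayed within the counting interval of the reported value or within 1.5 times the reported count, 15 moved and 0 reversed, where reversed means a change of sign of a value whose own interval excluded no difference. Of 99 values for single genes 92 stayed, 6 moved and 1 reversed. Values whose interval included no difference changed sign more often, namely the summed subunits under 3 alternatives and Nfkb1, Rela, Nfkbib or Nfkbie in the rest of 13 sign changes of single genes, which include that of Nfkb2. In the cells with UMIs of Y-linked genes but none of Xist (12 in KO) the log2 ratio was -5.07 for Nfkbia and -3.76 for the inhibitors, the inhibitor share differed by -60.4 points and 8 genes counted as at least 2-fold lower, each because it had 0 KO UMIs. Nfkb2 was 1 of these 8, and its log2 ratio of 0.019, the value that reversed, is set by the prior count. Without Nfkbia, the inhibitors had a log2 ratio of -1.18 and the share differed by -17.7 points, by construction. The Nfkbia cell share differed by -39.9 points at 1000 UMIs and -43.6 points without thinning. Added after the data were seen, scaling to the reference transcripts gave -1.64 for Nfkbia, -1.32 for the inhibitors, 0.68 for the subunits, 3 genes at least 2-fold lower (beside 7.12% of all genes) and 2 at least 2-fold higher (beside 39.1%, 0 as reported), and leaving out cells with a marker of other brain cell types gave -2.94, -2.50 and a share difference of -39.7 points. The cause of the last was not tested. Scaling by the median of gene ratios shifted log2 ratios by -0.21. With 1 UMI worth 2.62 CPM in KO, depth limits Nfkb2, Relb, Tnfaip3, Nfkbib and Rela most. No paired analysis was possible because each genotype had 1 library.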

Other observations

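Further marker lists of other cell types in the sorted cells summed to 62.9 CPM in KO and 46.3 CPM in WT for border macrophages, and 99.7 and 58.3 CPM for B lymphocytes. Mrc1 gave all 24 border macrophage UMIs in KO (21 in WT), the other 6 markers were at 0 there, and F13a1 had 0 and 46 UMIs. Of 5 B lymphocyte markers 3 were matched. Ighm gave 35 of the 38 KO UMIs (88 of 116 in WT), while Cd79b had a ratio of 0.559 (0.109 to 1.81). Of 6 T or NK lymphocyte markers only 2 were matched, with 0 and 2 UMIs. Astrocyte markers summed to 367 and 169.9 CPM, oligodendrocyte markers to 73.4 and 53.8 CPM, endothelial markers to 89.2 and 17.6 CPM, and neuronal markers to 18.4 and 9.05 CPM.

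Over the 1427 WT cells thinned to 500 UMIs, the genes whose log UMIs were most correlated with those of Nfkbia among 805 genes were Gpr84 (Pearson r 0.197), Plek (0.160), Tlr2 (0.0975), Sdc4 (0.0968) and Ctsb (0.0915). Gpr84 is a receptor for medium-chain fatty acids and Tlr2 a receptor for bacterial lipoproteins. The other 9 of the 10 genes had r between -0.0104 for Nfkb1 and 0.0687 for Rel. All of these are weak, the cells share a library, and the values are a description.

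In barcodes that were not taken as cells, Nfkbia had a KO/WT ratio of 0.332 (0.263 to 0.416), Tnfaip3 one of 0.229 (0.0604 to 0.615) and Nfkbiz one of 0.454 (0.246 to 0.780), on the same side as in cells. Nfkb2 had a ratio of 0.932 (0.272 to 2.58) there and 0.174 (0.0206 to 0.656) in cells, and the difference between them was not tested.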
